A study of Arabidopsis thaliana with 26 samples.

Results

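The pericentromere of chromosome 1 was taken as all HindIII fragments of that chromosome whose distance to the centromere was at least 100 kb and below 1200 kb and that carried at most 90 reads in a genomic DNA control library. The rule used position and control reads only, and no contact values. It selected 1569 of the 66846 fragments of the 5 chromosomes, of which 540 lay left of the centromere (chr1:13875645-14971634, TAIR10) and 1029 lay right of it (chr1:15189180-16309338). The limit on control reads removed none of them, since the highest value among the members was 59.0 reads. Contacts were measured by circular chromosome conformation capture (4C), in which chromatin is crosslinked, cut and ligated so that sequences ligated to a chosen fragment, the viewpoint, can be amplified and sequenced. All libraries came from untreated wild-type Arabidopsis thaliana, ecotype Col-0, from aerial tissue of seedlings at 14 days of age, so a value averages over all cell types of the shoot. There were 13 viewpoints with 2 libraries each, called A and B. The labels state that PCR products of the replicates were pooled before library construction, without saying which products shared a pool, so the spread between A and B may be partly technical. The 9 viewpoints outside chromosome 1 were AT3G44380 on Chr3, SWN, hk4s and YAO on Chr4 (the later set, cut with NlaIII as second enzyme), and FIS and CKI1 on Chr2, AG and FWA on Chr4 and FLC on Chr5 (the first set, cut with DpnII). The first set was amplified with primers that carried the sequencing adapter, while adapters were ligated later in the later set. Viewpoint position differed between the sets too. Distances to the centromere ran from 1.21 Mb (YAO) to 3.07 Mb (SWN) in the later set. In the first set they ran from 6.43 Mb (AG) to 15.9 Mb (CKI1). The second enzyme, the library preparation and the viewpoint position therefore cannot be told apart. MEA F6 and MEA F8 on the left arm and PHE and AT1G51860 on the right arm were the 4 viewpoints on chromosome 1 itself.

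Pericentromeres flank the centromere and in Arabidopsis hold most of the constitutive heterochromatin, which is poor in genes, rich in transposons and satellite repeats, and visible under the microscope as chromocenters. H3K9me2 and H3K27me1 are the histone marks that go with this silent state, and in plants they are set by the KRYPTONITE family and by ATXR5 and ATXR6, all of them histone methyltransferases. H3K4me2, H3K36me3 and the acetylated histones mark the active chromatin of the arms. Repeats matter for 4C, because a read from a repeated sequence can match many places.

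The sequences at the fragment ends show how repeated the region is, and these 3 most frequent 26-base members are printed because they occur in many copies on the right side (capitals mark the HindIII site, plus strand, TAIR10).
Repeat 1 (chr1:15207809-15207834): AAGCTTcttcatgattctcaAAGCTT
Repeat 2 (chr1:15195486-15195511): AAGCTTcttctttattcccaAAGCTT
Repeat 3 (chr1:15207334-15207359): AAGCTTattcttgattctcaAAGCTT
Repeat 1 made up 49 members, repeat 2 made up 37 and repeat 3 made up 23, all of them right of the centromere. The copies of repeat 1 lay between 119 and 342 kb from the centromere. Repeat 2 differed from repeat 1 at 3 bases and repeat 3 differed from it at 2 bases. In all, 199 members were 26 bases long, 171 of them on the right side, and they fell into 45 distinct sequences.

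The starts of the 6 most contacted members, chosen as described further on, are printed next, because they show that repeat sequence was also present among fragments with many reads (HindIII site in capitals and the 30 bases that a read would hold, plus strand, TAIR10).
Left 1 (chr1:14498881-14498916): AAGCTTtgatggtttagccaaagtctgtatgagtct
Left 2 (chr1:14181825-14181860): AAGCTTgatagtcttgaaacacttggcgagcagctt
Left 3 (chr1:13936947-13936982): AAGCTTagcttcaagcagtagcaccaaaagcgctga
Right 1 (chr1:16044674-16044709): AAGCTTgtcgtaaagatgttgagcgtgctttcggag
Right 2 (chr1:15431495-15431530): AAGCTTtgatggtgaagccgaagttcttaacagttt
Right 3 (chr1:15428126-15428161): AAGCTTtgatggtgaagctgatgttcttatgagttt
Left 1, right 2 and right 3 shared their first 13 letters, AAGCTTtgatggt. This start stood at 1 or both ends of 284 of the 1569 members (18.1%), against 5 of the 15089 other fragments of Chr1 (0.0331%), where the rest of Chr1 was all that lay 1.2 Mb or more from the centromere. On the right side 257 of 1029 members carried it (24.98%) and on the left side 27 of 540.

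Because reads were aligned after removal of the HindIII site, the 30 bases next to the site were searched on both strands of the 5 chromosomes. Both ends were found once for 465 of the 1569 members (29.6%), against 13818 of 15087 fragments on the rest of Chr1 (91.6%). By side the share was 192 of 540 on the left (35.6%) and 273 of 1029 on the right (26.5%). Of the 243 members that lay 200 to 300 kb to the right of the centromere none had both ends found once, and 84.0% of them had fewer than 3 genomic DNA reads. Reads with several matches were allocated to fragments by the submitters with an allocation distance of 50 kb, and reads with more than 25 matches were dropped. The comparisons of the region as a whole are therefore given for all usable members and also for the members with both ends found once. That second set was chosen after the values had been seen.

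The histone marks followed the label. The mean density of H3K9me2, the percentage of the bases of a fragment covered by reads in a published data set, was 22.7 over the members and 2.10 over the rest of Chr1. H3K27me1 averaged 23.4 over the members and 4.64 over the rest. The marks of active chromatin ran the other way, with a mean H3K4me2 density of 2.47 over the members and 32.1 over the rest, and a mean H3K36me3 density of 4.27 over the members against 37.3 over the rest. A transposable element overlapped 80.6% of the members and 22.7% of the other fragments. Genes overlapped 8.99% of the members and 85.9% of the other fragments. Histone H3 itself had a density above 0 on 72.4% of the members and on 98.1% of the rest.

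The second enzyme shortens the ligated fragments before amplification, and fragments with one of its sites within 1000 bp of a HindIII end were called usable. This held for 1126 members with NlaIII (425 left, 701 right) and for 1136 with DpnII (412 left, 724 right), while 270 members were usable with neither. The 26 libraries held between 501056 and 6549830 deposited reads at HindIII ends, of which 254687 to 3357850 lay on usable fragments at least 1 kb from the viewpoint and at least 100 kb from a centromere. Values below are reads per 1000000 of these kept reads (RPM), averaged over usable fragments (RPM per fragment). They were not divided by fragment length, whose median was 488 bases over all members and 1200 bases over the rest of Chr1. The effect of length was not tested. The usable members together received between 1015 and 40510 reads in a library. In the 18 libraries of the 9 viewpoints outside chromosome 1 that came to a median of 2.35 reads per usable member (range 0.901 to 12.3), against a median of 0.929 reads per member without a usable site (range 0.305 to 4.32), so single fragments were sparsely sampled and sums over many fragments are better determined.

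Every viewpoint outside chromosome 1 contacted the pericentromere less often than the rest of the chromosome. The members had a lowest, median and highest value of 1.78, 3.12 and 3.69 RPM per fragment over the 18 libraries, and the rest of Chr1 had 5.27, 8.27 and 11.4 RPM. All 18 libraries were lower over the members than over the rest, and the 2 ranges did not overlap. The mean log2 ratio of members to rest was -1.44 ± 0.29 (SD, n = 9 viewpoints), a 2.71-fold lower level, and an exact two-sided sign-flip test over the 9 viewpoints gave p = 0.00391, the smallest that 9 viewpoints allow. The p-value measures only whether viewpoints moved the same way, since all of them share the same fragments. The test also treats the viewpoints as independent, although several share a chromosome arm. SWN, hk4s and YAO lie on the left arm of Chr4, AG and FWA on its right arm, and FIS and CKI1 on the right arm of Chr2. Members with both ends found once stood at a log2 ratio of -0.88, which is 1.84-fold lower than the rest (exact sign-flip p = 0.00391, negative in 9 of 9).

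Both sets of viewpoints showed the deficit. In the later set the log2 ratio averaged -1.47 ± 0.35 (SD, n = 4) and in the first set -1.42 ± 0.26 (SD, n = 5). An exact permutation test of their difference gave p = 0.802. It compares enzyme, library preparation and viewpoint position all at once, so it cannot separate their effects. Alone, 4 viewpoints cannot give an exact p under 0.125 and 5 viewpoints cannot give one under 0.0625, and both sets reached these limits.

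The size of the deficit varied between viewpoints. The viewpoint hk4s, which lies in the knob of heterochromatin that chromosome 4 carries on its short arm, stood highest, with log2 ratios of -0.90 and -0.98 in libraries A and B, or 3.67 and 2.67 RPM per fragment over the members against 6.87 and 5.27 RPM over the rest of Chr1. AG was next, at -1.02 and -1.002, with 3.29 and 3.45 RPM over the members against 6.68 and 6.91 RPM over the rest. These were the only viewpoints of the 9 with a mean above -1.3. At the low end lay SWN with -1.61 and -1.81 and CKI1 with -1.75 and -1.63. CKI1 had 3.22 and 3.69 RPM over the members against 10.8 and 11.4 RPM over the rest, so its low ratio went with the highest level on the arms. On members with both ends found once hk4s kept 7.60 and 5.54 RPM against 8.99 and 7.28 RPM over the rest, a mean log2 ratio of -0.32, and AG stood at -0.43. The other 7 viewpoints had ratios of -0.77 or lower there.

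**Figure D1:**
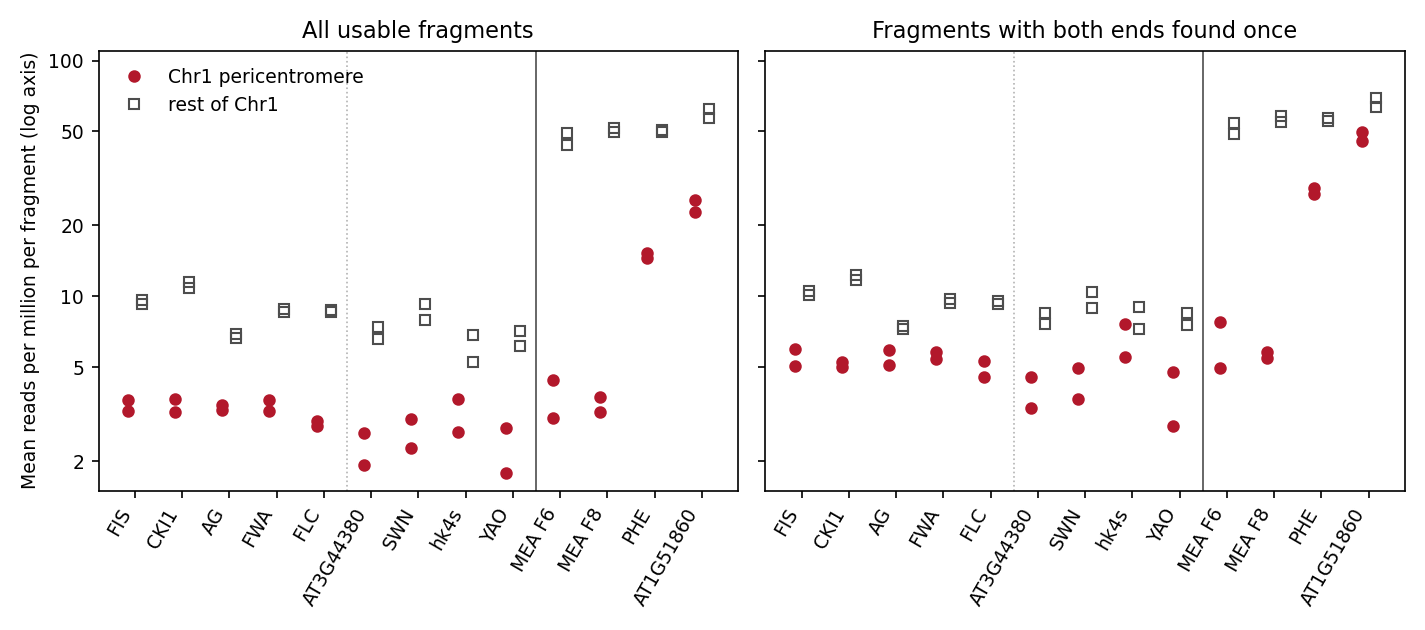
Mean RPM per usable fragment in each library (log axis), for the Chr1 pericentromere (filled circles) and the rest of Chr1 (open squares), 2 libraries per viewpoint. The left panel uses all usable fragments and the right panel those with both ends found once. The dotted line parts the first set from the later set and the solid line parts off the 4 viewpoints on chromosome 1. Over all usable fragments the members lie below the rest in all 18 libraries from other chromosomes, and the gap narrows in the right panel.

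Over all usable members the deficit was deepest between 200 and 400 kb on the left and between 200 and 300 kb on the right. Nearer to the centromere, between 100 and 200 kb, the means were 1.78 ± 1.08 RPM per fragment on the left and 1.43 ± 0.52 RPM on the right (SD, n = 9). Between 200 and 300 kb the 9 viewpoints averaged 0.75 ± 0.45 RPM per fragment on the left side and 0.39 ± 0.24 RPM on the right side (SD, n = 9). Between 300 and 400 kb the left side held 6 members and 0.22 ± 0.24 RPM, while the right side held 115 members and 3.26 ± 0.90 RPM. Over members with at least 3 genomic DNA reads the trough at 200 to 300 kb was much shallower. There the means were 1.65 ± 1.33 RPM on the left and 1.80 ± 1.12 RPM on the right. At 100 to 200 kb such members averaged 1.97 ± 1.27 RPM on the left and 1.90 ± 0.63 RPM on the right, and at 300 to 400 kb 0.42 ± 0.63 and 3.40 ± 0.93 RPM. From 500 kb outward, means of the 100-kb steps over all usable members lay between 2.73 and 4.81 RPM on the left and between 3.49 and 5.50 RPM on the right. Just outside the 1.2 Mb limit, from 1200 to 1300 kb, they were 4.60 ± 1.42 RPM on the left and 5.01 ± 1.49 RPM on the right, so there was no step at the limit itself. The share of members with both ends found once moved along with distance, with 0% in the left side's first 3 steps and 82.98% between 1000 and 1100 kb, and with 0% on the right between 200 and 300 kb and 85.7% between 1000 and 1100 kb.

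Members with both ends found once were also compared by distance. Their log2 ratio to the rest of Chr1 averaged -1.22 ± 0.85 at 100 to 400 kb, where only 16 or 17 fragments were left, -0.85 ± 0.37 at 400 to 800 kb and -0.89 ± 0.30 at 800 to 1200 kb (SD, n = 9). At 100 to 400 kb it was negative in 8 of 9 viewpoints and ran from -2.96 for SWN to 0.25 for AG. Libraries A and B gave -4.17 and -1.76 for SWN and -0.39 and 0.90 for AG, so the sign differed between the AG libraries. From 400 to 800 kb and from 800 to 1200 kb the log2 ratio was negative in 9 of 9 viewpoints. Beyond the region, the same measure was -0.72 ± 0.43 at 1.2 to 2 Mb and -0.43 ± 0.29 at 2 to 5 Mb, negative in 9 of 9 viewpoints in both steps. Contact below that of the rest of Chr1 thus went on past the outer limit of the region. Against Chr1 within 5 Mb of the centromere only, the log2 ratio of all usable members was -0.98.

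**Figure D2:**
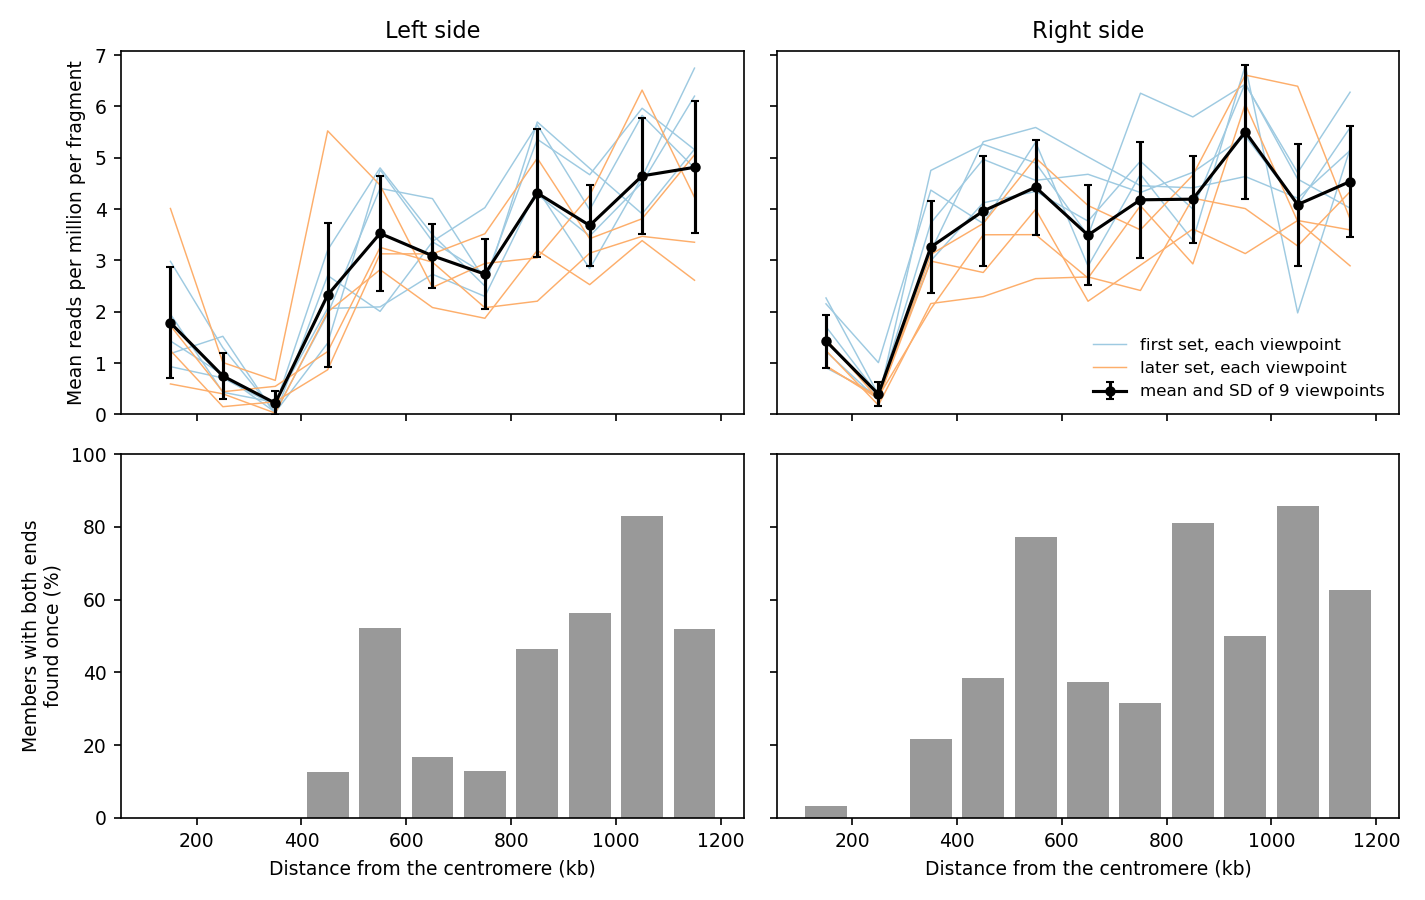
Top, mean RPM per usable member in 100-kb steps of distance from the centromere, left side and right side. Thin lines are the 9 viewpoints outside chromosome 1 and black points with bars are their mean and SD. Bottom, the percentage of members with both ends found once in the same steps. Values near 0 RPM at 200 to 400 kb on the left and 200 to 300 kb on the right fall in steps where no member had both ends found once. The left step at 100 to 200 kb, with 13 members, also had no such member and averaged 1.78 RPM.

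The left side received slightly more reads per fragment than the right side in most libraries. Over the 18 libraries the lowest, median and highest values were 1.45, 3.41 and 4.47 RPM per fragment on the left and 1.92, 2.91 and 3.52 RPM on the right, so the ranges overlapped, and the left was higher in 16 of 18 libraries. The exceptions were AG B and YAO B. The mean log2 ratio of left to right was 0.23 ± 0.18 (SD, n = 9), which is 1.18-fold, with an exact two-sided sign-flip p = 0.0117 and 8 of 9 viewpoints above 0. The difference changed with the members and libraries used. With library B of each viewpoint alone it was 0.15 (exact p = 0.168) and with library A alone 0.32. With members at least 400 kb from the centromere it turned to -0.23 (exact p = 0.0117), and with members whose ends were both found once it was -0.03 (exact p = 0.770).

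Among the 4 viewpoints on chromosome 1, the 2 sides differed most for those on the right arm. AT1G51860, 4.17 Mb right of the centromere, had 14.3 and 12.2 RPM per fragment on the left side and 32.4 and 29.4 RPM on the right side in libraries A and B. PHE, 9.18 Mb to the right, had 11.9 and 11.7 RPM on the left and 16.0 and 17.4 RPM on the right. Both right-arm viewpoints thus had more contacts on their own side in each library. The mean log2 ratio of left to right was -1.22 for AT1G51860 and -0.50 for PHE, and it was -1.56 and -0.97 on members with both ends found once. No test was run, because 2 viewpoints on each arm could not give a small p and their enzymes and batches differ.

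MEA F6 and MEA F8, both 14.5 Mb left of the centromere and close to each other, gave low values on both sides. MEA F6 had 4.86 and 3.13 RPM per fragment on the left and 4.14 and 2.99 RPM on the right, and MEA F8 had 4.26 and 3.42 RPM on the left and 3.42 and 3.09 RPM on the right. Their mean log2 ratios of left to right, 0.15 for MEA F6 and 0.23 for MEA F8, lay near the 0.23 of the 9 viewpoints outside chromosome 1. On members with both ends found once the log2 ratio of left to right was 0.197 and -0.156 for MEA F6 and 0.154 and 0.207 for MEA F8, so its sign differed between the libraries of MEA F6. These levels fell within or near the 1.45 to 4.47 RPM that viewpoints on other chromosomes gave on the left side, although the denominators differ, since reads on the same chromosome take part of each total. Over the whole region MEA F6 had 4.41 and 3.04 RPM against 43.6 and 49.4 RPM over the rest of Chr1, a 12.7-fold lower mean level, and the members were 14.6-fold lower for MEA F8. PHE, by contrast, had 14.5 and 15.3 RPM over the members against 50.8 and 49.9 RPM over the rest, and AT1G51860 had 25.6 and 22.9 RPM over the members against 57.0 and 62.1 RPM over the rest, which was 3.38-fold lower for PHE and 2.46-fold lower for AT1G51860. On members with both ends found once the region was 8.28-fold lower for MEA F6, 9.999-fold for MEA F8, 2.01-fold for PHE and 1.397-fold for AT1G51860.

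Set against the matching arm without the 2 Mb around the viewpoint, AT1G51860 and PHE showed a different picture on each fragment set. For AT1G51860 the right side stood at log2 ratios of -0.52 and -0.68 to the right arm over all usable fragments, and at 0.41 and 0.30 over fragments with both ends found once. Its left side stood at -0.12 and -0.17 to the left arm over all usable fragments, and at 0.48 and 0.47 over those found once. PHE gave -0.22 and -0.26 on the left side over all usable fragments and 0.24 and 0.19 over those found once, while its right side stayed negative at -0.63 and -0.53. For MEA F6 both sides stayed below their arms, at -2.06 and -2.996 on the left and -1.13 and -1.53 on the right over fragments found once. MEA F8 gave -2.11 and -2.58 on the left and -1.06 and -1.54 on the right.

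**Figure D3:**
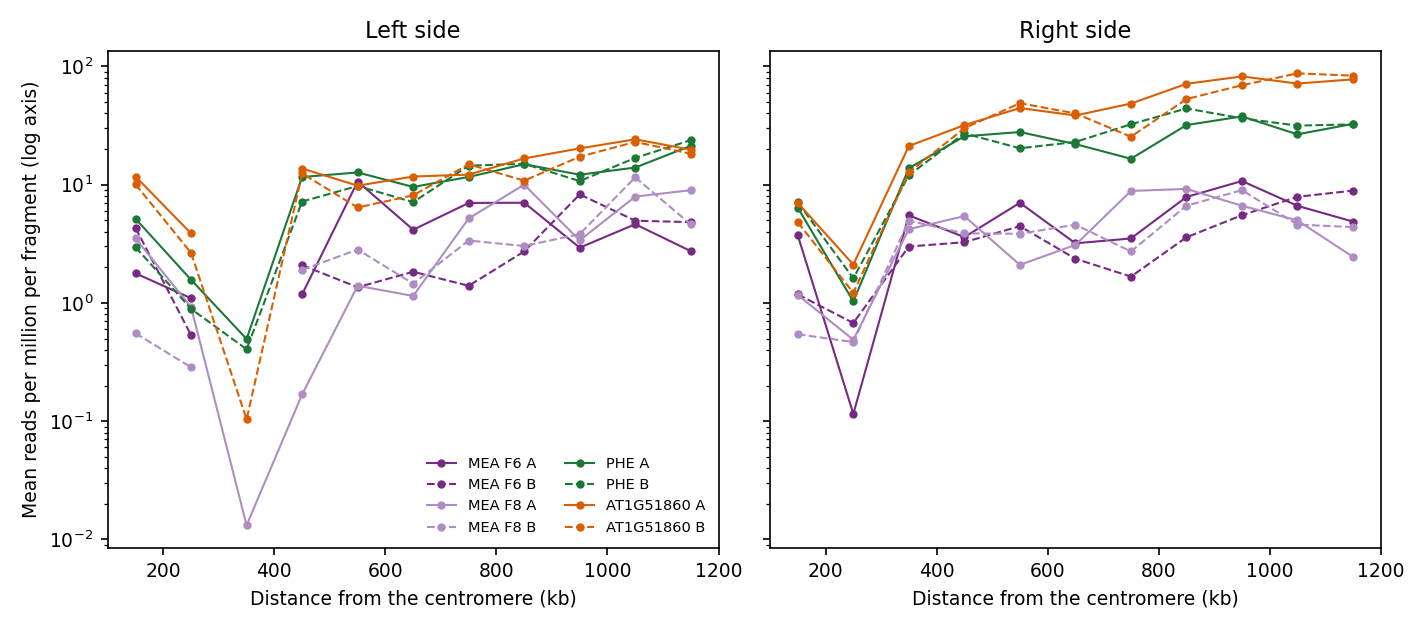
Mean RPM per usable member (log axis) in 100-kb steps of distance from the centromere for the 4 viewpoints on chromosome 1, left and right side, solid lines for library A and broken lines for library B. Steps with a value of 0 are not drawn. AT1G51860 and PHE lie above both MEA viewpoints from 400 kb outward on the right side, where AT1G51860 reaches 77.7 and 83.5 RPM between 1100 and 1200 kb.

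Members with a high density of heterochromatic marks received more reads than members with a low one. The upper tertile by H3K9me2 had a lowest, median and highest value of 2.22, 4.08 and 4.95 RPM per fragment over the 18 libraries, and the lower tertile had 0.839, 1.45 and 2.29 RPM. The upper tertile was higher in 18 of 18 libraries. The mean log2 ratio was 1.46 ± 0.28 (SD, n = 9), or 2.76-fold, and exact sign-flip tests with Benjamini-Hochberg adjustment over 3 features gave p = 0.00586. For H3K27me1 the upper tertile had 2.25, 3.97 and 5.16 RPM and the lower tertile had 0.916, 1.36 and 2.33 RPM, a mean log2 ratio of 1.53 ± 0.31 (2.89-fold, exact adjusted p = 0.00586, higher in 18 of 18 libraries).

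The upper and lower tertiles also differed in control reads, in H3 and in fragment length. With DpnII the median length was 1177 bases in the upper tertile by H3K9me2 and 489 bases in the lower tertile. With DpnII, 5.28% of the upper tertile by H3K9me2 had fewer than 3 genomic DNA reads and 0.264% had an H3 density of 0, while in the lower tertile these shares were 41.8% and 56.1%. The upper tertile had a median distance of 616 kb from the centromere, against 258 kb in the lower tertile, all 431 fragments of which had an H3K9me2 density of 0. With at least 3 genomic DNA reads per fragment the log2 ratios were 0.57 for H3K9me2 and 0.58 for H3K27me1 (exact adjusted p = 0.00586 for both). Per genomic DNA read they were 0.50 (exact adjusted p = 0.00781) and 0.55 (exact adjusted p = 0.00586), and with members at least 400 kb from the centromere 0.18 (exact adjusted p = 0.0117) and 0.25 (exact adjusted p = 0.0293). With both ends found once they were 0.27 and 0.26 (exact adjusted p = 0.0820 for both). Dividing each mark by the H3 density of the fragment, among fragments with at least 3 genomic DNA reads, left 0.03 for both marks (exact adjusted p = 0.629 for both).

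Transposable elements made no difference that passed the test. Members that overlap an annotated element had 1.73, 2.997 and 3.75 RPM per fragment as lowest, median and highest values, and members without one had 1.45, 3.24 and 4.76 RPM. The mean log2 ratio was -0.13 ± 0.30 (SD, n = 9, exact adjusted p = 0.223, above 0 in 3 of 9 viewpoints). In the later set alone it was -0.32 ± 0.21 (SD, n = 4, exact sign-flip p = 0.125, the smallest that 4 viewpoints allow). In the first set it was 0.02 ± 0.27 (SD, n = 5, exact sign-flip p = 0.8125). Per genomic DNA read the sign of the mean over all 9 viewpoints turned, at 0.56 (exact adjusted p = 0.00586). Members with an element carried fewer control reads, with a mean of 7.12 genomic DNA reads with DpnII against 10.98 in members without one. They were also longer, with a median of 1000 bases against 281 bases.

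**Figure D4:**
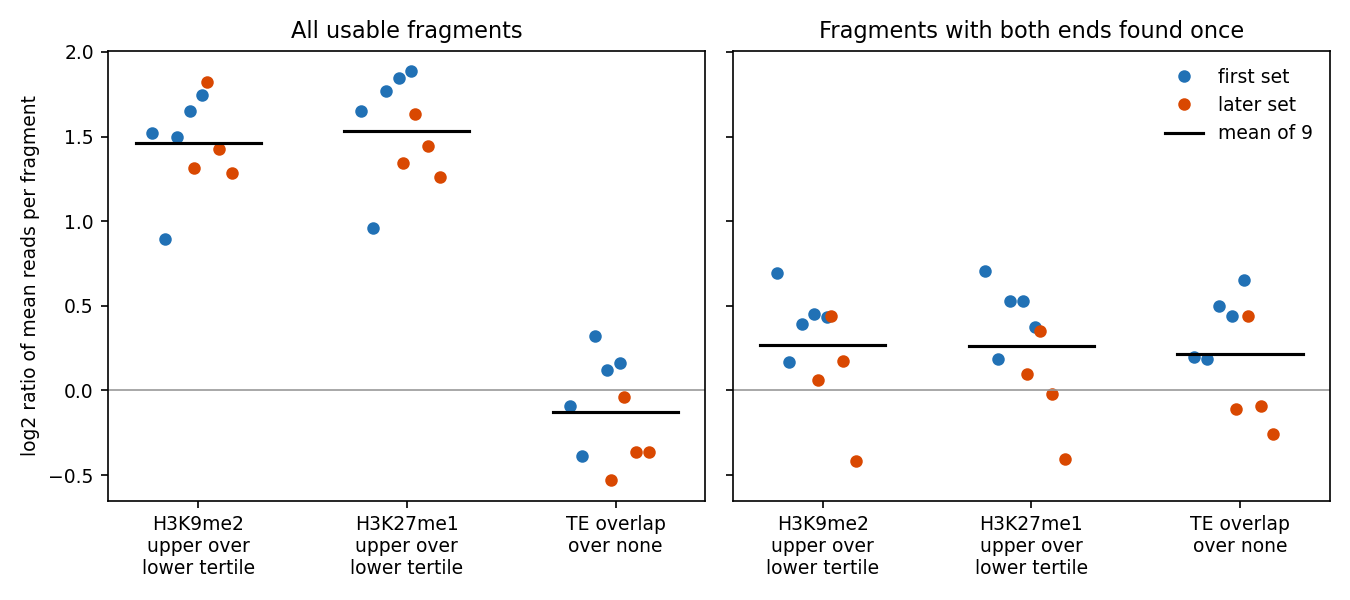
log2 ratio of mean reads per fragment for members in the upper over the lower tertile of H3K9me2 and of H3K27me1 density, and for members with over without a transposable element (TE). Points are the 9 viewpoints outside chromosome 1, each the mean of 2 libraries, and black lines are their means. Over all usable fragments (left) both marks average above 1.4, and over fragments with both ends found once (right) they average 0.27 and 0.26.

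The pericentromeres of chromosomes 3 and 5, chosen by the same distances, also lay below their own arms. For Chr3 the log2 ratio averaged -0.80 ± 0.32 over the first set, which has no viewpoint there (SD, n = 5). For Chr5 it averaged -0.99 ± 0.49 over the later set, which has none on Chr5 (SD, n = 4). Over all usable fragments that of chromosome 1 lay lower still relative to its own arms. Over the 8 viewpoints on neither chromosome the log2 ratio to the rest of the same chromosome was 0.62 ± 0.15 lower for Chr1 than for Chr3 (mean difference -0.62, exact sign-flip p = 0.00781 after adjustment over 2 comparisons, lower in 8 of 8). Against Chr5 the mean difference was -0.53 ± 0.13 (exact adjusted p = 0.00781, lower in 8 of 8). The regions held 1569, 1060 and 1953 fragments on Chr1, Chr3 and Chr5, and both ends were found once for 29.6%, 54.2% and 31.3% of them. Without the limit on genomic DNA reads the difference to Chr3 was -1.39, or 2.62-fold (exact adjusted p = 0.00781). On fragments with both ends found once the differences were -0.04 to Chr3 (exact adjusted p = 0.469) and -0.11 to Chr5 (exact adjusted p = 0.219).

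**Figure D5:**
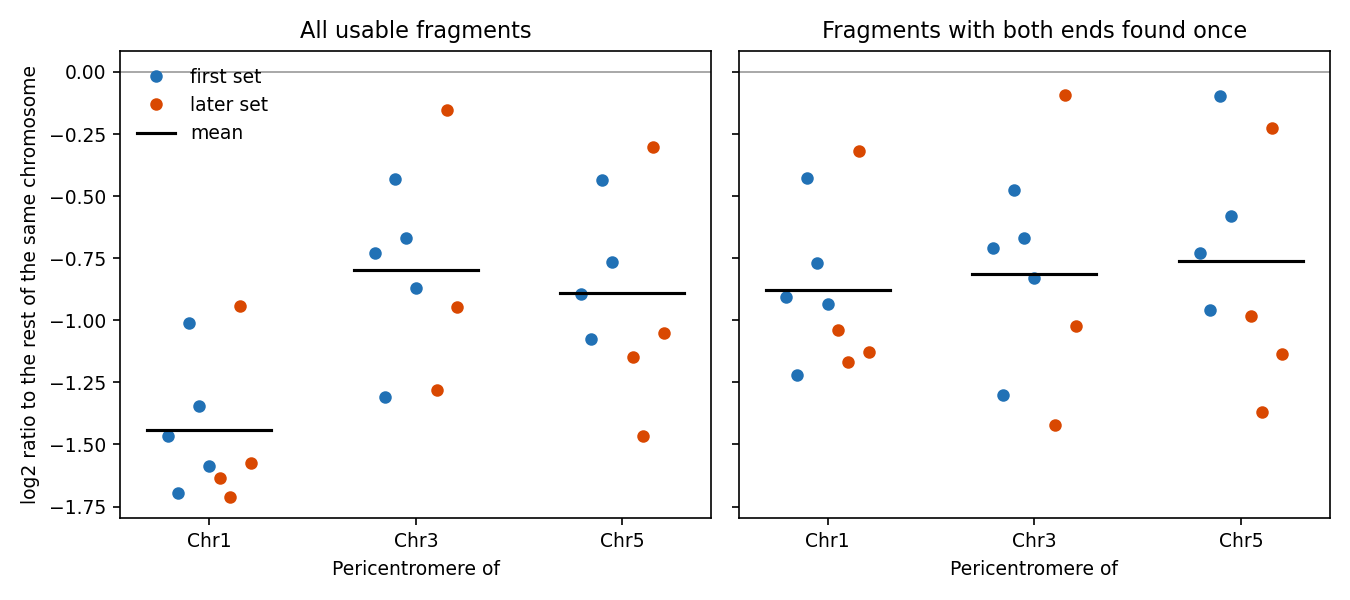
log2 ratio of mean reads per fragment in the pericentromeres of Chr1, Chr3 and Chr5 to the rest of the same chromosome. Each point is 1 viewpoint on another chromosome and black lines are means. The Chr1 values average -1.44 over all usable fragments (left) and -0.88 over fragments with both ends found once (right), where the 3 chromosomes overlap.

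Differences between viewpoints within the region were then sought in windows of 25 fragments usable with both enzymes. Of 39 member windows, 36 had enough reads to be tested with edgeR's quasi-likelihood test, each viewpoint against the mean of the others of its set, with Benjamini-Hochberg adjustment over all 1968 windows tested. Over the 9 contrasts 13 of 324 member tests passed an adjusted p of 0.05 (4.01%), of which 9 were higher and 4 were lower, against 27.9% of all 17712 tests (13.7% higher and 14.2% lower). On the rest of Chr1 291 of 4230 tests passed (6.88%). The difference between these shares was not tested. The median level was 7.39 log2 CPM in member windows and 8.504 in all windows.

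The viewpoint hk4s had the most calls, with 4 of 36 member windows higher (11.1%) and none lower, against 7.62% of all its windows called higher and 6.45% called lower (14.1% in all). On the rest of Chr1 hk4s had 5 of 470 windows called higher (1.06%) and 4 called lower (0.851%), and the difference in shares was not tested. Its median log2 fold change was 0.68 over the member windows, against -0.06 over the rest of Chr1 and -0.02 over all windows. The largest was at chr1:14858754-14969321, 120 kb left of the centromere, with 134 and 55.9 CPM for hk4s and a median of 25.5 CPM (range 7.17 to 34.9) in the 6 other libraries of its set (log2 fold change 2.01, edgeR adjusted p = 0.00853). Of that window's tested fragments 0% had both ends found once. A second window called higher, singled out after its values were seen, at chr1:15599771-15643521, had 83.3% of such fragments, with 226 and 168 CPM for hk4s and 81.7 to 115 CPM in the others (log2 fold change 1.03, edgeR adjusted p = 0.0337). In both windows the hk4s libraries lay above all others of the set.

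AG had 3 of 36 member windows higher (8.33%) and none lower, against 17.1% of all its windows called higher and 14.9% called lower (32.0% in all). On the rest of Chr1 4.26% of its windows were called higher and 8.72% lower. The largest was at chr1:15884527-15969523, with 233 and 188 CPM for AG and 66.9 to 152 CPM in the 8 other libraries of its set (log2 fold change 1.09, edgeR adjusted p = 0.00249). This window overlaps 5 protein-coding genes, and 79.2% of its tested fragments had both ends found once. CKI1 had 1 window higher and 1 lower (2.78% each), against 14.3% of all its windows called higher and 20.4% called lower (34.7% in all). On the rest of Chr1 18.5% of its windows were called higher and 7.23% lower. The lower one, at chr1:16111356-16176765, had 19.7 and 39.1 CPM for CKI1 and 73.7 to 117 CPM in the others (log2 fold change -1.64, edgeR adjusted p = 0.00980). The higher one, at chr1:15354435-15373804, lay within the distances over which repeat 1 occurred on the right side. It had 132 and 53.4 CPM for CKI1 and 2.57 to 41.5 CPM in the others (log2 fold change 2.12, edgeR adjusted p = 0.0118), with 0% of its fragments found once.

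FLC had 2 member windows lower (5.56%) and none higher, against 23.5% of all its windows called lower and 19.2% called higher (42.6% in all). On the rest of Chr1 1.70% of its windows were called lower and 1.49% higher. The larger was at chr1:14543974-14660325, with 27.04 and 33.9 CPM for FLC and 46.2 to 190 CPM in the others (log2 fold change -1.66, edgeR adjusted p = 0.0315). The same window was called higher for hk4s, with 250 and 173 CPM against 10.2 to 168 CPM in its set (log2 fold change 1.55, edgeR adjusted p = 0.0495). FIS had 1 member window higher, at chr1:15218080-15237415, with 79.0 and 121 CPM against 26.2 to 60.2 CPM in the others (log2 fold change 1.197, edgeR adjusted p = 0.0210), beside 15.2% of all its windows called higher and 17.5% called lower (32.7% in all). YAO had 1 lower, at chr1:14088848-14135500, with 60.8 and 23.3 CPM against 76.6 to 161 CPM in the others (log2 fold change -1.53, edgeR adjusted p = 0.0287), beside 6.76% of all its windows called lower and 10.8% called higher (17.6% in all). FWA, AT3G44380 and SWN had none in edgeR's test, and at an unadjusted p under 0.05 they had 0, 1 and 4. Of all windows, FWA had 14.8% called higher and 11.8% lower (26.6% in all), AT3G44380 had 17.7% higher and 19.9% lower (37.6% in all), and SWN had 6.50% higher and 6.76% lower (13.3% in all). On the rest of Chr1 the shares called in either direction were 0.213% for FWA, 7.23% for AT3G44380 and 7.87% for SWN. There they were 0.426% for FIS and 2.34% for YAO, against 2.78% of the member windows of each. None of these differences in shares was tested.

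The 6 members with the highest contact, 3 on each side by mean log2(RPM + 1) over the 9 viewpoints, are described as values without a test. Left 1, a fragment of 180 bases at 590 kb from the centromere with no annotated gene or element, had a lowest, median and highest value of 4.87, 13.2 and 25.4 RPM over the viewpoints. Left 2, at 906 kb, overlaps the pseudogene AT1G37160 and had 5.45, 8.86 and 10.6 RPM. Left 3, at 1152 kb, overlaps the pseudogene AT1G36790 and had 3.17, 10.5 and 18.5 RPM. On each of them the mean of every one of the 9 viewpoints lay above the 2.99 RPM that the members averaged. This largely follows from their choice by contact with the same viewpoints. Single libraries had 0 RPM, namely AG B and YAO B on left 1 and AT3G44380 A on left 3.

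Right 1, at 956 kb, overlaps the pseudogenes AT1G42690 and AT1G42695 and had 5.54, 13.0 and 29.1 RPM, the highest from AT3G44380. Right 2, at 343 kb, had 3.95, 8.76 and 46.4 RPM, the highest from YAO. Right 3, at 339 kb, had 0, 16.3 and 38.6 RPM, with AT3G44380 at 0 and AG highest. Control reads were high on several of these fragments, with 17.6 genomic DNA reads on left 1, 17.9 on right 1 and 23.6 on right 3, against a median of 6.64 over the members. Left 1 and right 3 had both ends found once, while the ends of left 2, left 3, right 1 and right 2 were found between 2 and 17 times.

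At the limits of the region, the outermost member on the left (chr1:13875645-13891150) averaged 4.45 ± 3.42 RPM over the 9 viewpoints and its neighbour outside 6.54 ± 3.29 RPM. On the right the outermost member (chr1:16277991-16309338), which holds the protein-coding genes AT1G43190 and AT1G43245, averaged 12.6 ± 8.71 RPM and its neighbour outside 8.66 ± 7.89 RPM. At the inner limit on the right, the first member averaged 1.49 ± 1.62 RPM and its neighbour nearer to the centromere 1.44 ± 1.52 RPM. On the left, the first member was usable with NlaIII only and averaged 0.23 ± 0.46 RPM (SD, n = 4), and in the 8 libraries of the same viewpoints its neighbour, a fragment of 32155 bases, lay between 0 and 1.92 RPM.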

How the data were processed

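The submitters cut chromatin with HindIII, split reads by viewpoint primer, trimmed them to 30 bp and aligned them to TAIR10 with bowtie 0.12.7, allowing at most 25 matches. The deposited values are estimated counts: weighted reads at the HindIII ends of each fragment (expected counts), with reads of several matches allocated over a distance of 50 kb. Mark densities were deposited as a signal, the percentage of covered bases, and genomic DNA control reads in the same weighted form. Second sites were found in the reference for DpnII or NlaIII, the enzymes of the methods. A supplementary table names NlaIV where NlaIII was used here, and the deposited distances equalled those of NlaIII in all libraries. Fragments with a second site within 1000 bp, at least 1 kb from the viewpoint and 100 kb from a centromere were kept. Each viewpoint's log2 ratio was the mean of its 2 libraries. Exact two-sided sign-flip tests ran over viewpoints, which may share plant material. Window sums were rounded and fitted with edgeR 4.0.16 (TMM, 13 groups, 26 libraries), and DESeq2 1.42.0 was an alternative. Tests were tried on simulated data. Named fragments were the 3 highest per side, the largest calls of each viewpoint and those at the limits. The members and lists were chosen with earlier results of these data known. Gene positions came from the RefSeq annotation of TAIR10.1, and all 66846 fragments lay on its HindIII sites. Replicates A and B were compared across viewpoints by their deviations in windows: same-letter correlations among viewpoints of one library preparation ran between -0.10 and 0.15 (38 pairs, 4 above 0.1). The ratio of the region to the rest of Chr1 was nevertheless higher in A than in B for 4 of 4 later-set viewpoints, and that of left to right was higher in A for those 4 and lower in A for 4 of the 5 first-set viewpoints.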

Additional observations from a re-analysis of the deposited data

Results flagged for a closer look

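CKI1 had the lowest H3K27me1 ratio of the first set, a mean log2 ratio of 0.96 between the upper and lower tertile, and stood apart from the next viewpoint at 1.65 by 0.749 of the set's range. Of 15 groups examined in this way 1 was flagged, and chance flags about 1 in 20.

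Over all usable members, viewpoints on the left arm of chromosome 1 had a positive log2 ratio of left to right side in each library (mean 0.19). Those on the right arm had a negative one in each library (mean -0.86), a difference of 1.05 that was not tested. The 9 viewpoints outside chromosome 1 averaged 0.23, with the left higher in 16 of 18 libraries, so the left-arm mean lay near theirs. On members with both ends found once the sign differed between the libraries of MEA F6 (0.197 and -0.156).

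Members without a usable second site, which the comparisons leave out, still held reads, between 135 in the lowest library and 2445 in the highest, above the 3 reads that a count of 0 allows.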

How the results depend on the processing

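The lower contact of the pericentromere kept its direction and its side of the threshold under 17 alternatives, of which 2 could not move it (the limit on genomic DNA reads, which removed no member, and the replicate block, since each viewpoint has 1 library of each letter), with log2 ratios between -1.77 (members up to 800 kb) and -0.31 (share of fragments with reads). With the replicate block it stayed at -1.44 and the window calls numbered 12 (3.70% of member tests, 28.3% of all), of which 11 were among the 13. The ratio of left to right was 0.0575 with at least 3 genomic DNA reads, 0.0224 per genomic DNA read, -0.0318 with both ends found once, -0.23 from 400 kb outward, and 0.15 to 0.32 with 1 replicate. H3K9me2 and H3K27me1 lost the call at 0.27 and 0.26 with both ends found once and at 0.0275 and 0.0251 over H3 density with at least 3 genomic DNA reads. The transposable element ratio changed sign to 0.11 by share of fragments, 0.11 with at least 3 genomic DNA reads, 0.56 per genomic DNA read, 0.22 with both ends found once and 0.23 from 400 kb outward, and ran between -0.30 and 0.0379 with 1 replicate. The difference between the sets of viewpoints, not called in any run, turned to 0.10 by mean log2(RPM + 1), 0.24 with the other enzyme's ends added and 0.0565 without AG, and ran between -0.19 and 0.10 with 1 replicate. Chr1 against Chr3 was -0.0440 with both ends found once, and Chr1 against Chr5 -0.11 there and -0.0393 per genomic DNA read. Window calls in the region numbered 8 with DESeq2 size factors (2.47% of member tests, 28.0% of all), 8 with windows of 10 fragments (1.07% of member tests, 15.4% of all), and 0 to 0 with 1 replicate, where each lone library was assumed to vary like the viewpoints of its set. There edgeR called 2.11% and 1.88% of all tests without A and without B, and 5 and 1 member tests had an unadjusted p under 0.05, so these runs do not bear on the members. In these runs the cause of a change was not tested. Reads per genomic DNA read, members from 400 kb, marks over H3 density and ends found once were chosen after seeing the data. Depth limits single fragments, with a median of 2.35 reads per usable member.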
